A study of Mus musculus with 6 samples.

Results

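The 8 genes Bcl3, Tmem259, Speg, Alpk3, Chst5, Vsx1, Ltc4s and Rock1 were selected on measured values of germline stem cells: the window assigned to each as a promoter held the most positions with higher methylation there than in a reference library. Each gene was examined over its span in the mouse build GRCm38 with 5000 bp to each side. These 8 loci held 463 of the 448072 distinct positions that the deposited tables list in any library, and 6 of the genes were among the 7377 whose promoter window held 3 or more listed positions. The number and size of the germline stem cell values near the promoters are therefore a description of the choice. The choice did not use which of these positions stay listed in the pluripotent lines, how the positions are arranged, and what the rest of each locus shows. Choosing on germline stem cell values can still affect how many of them stay listed.

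Methylation was read by reduced representation bisulfite sequencing, which sequences short fragments rich in CpGs, in 6 lines of cultured cells from OG2 mice. All of them share the Pou5f1-driven fluorescent reporter of that strain. The groups were germline stem cells (GSC, 1 line), pluripotent cells induced from GSC (iPSC, lines 1 and 2), pluripotent cells derived from the germline (gPSC, lines 1 and 2), and embryonic stem cells (ESC, 1 line). The labels give neither the ages of the donor animals nor the factors or culture steps used for each line, each line is a single sample, and a cell type with 1 line cannot be separated from that line. The title of the series asks whether factor-driven reprogramming leaves an epigenetic memory.

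The 5 libraries other than ESC each have 2 tables, of positions methylated more (hyper) or less (hypo) than an unnamed reference, assumed here to be ESC because that line has no tables. A listed value is the authors' difference from that reference in percentage points. All listed positions had a q-value of at most 0.01 and an absolute difference of at least 25 points. Coverage and methylation levels are not in the tables, so the depth is unknown, a missing position can be unchanged or unmeasured, and every library shares the error of the same reference. GSC had 255689 listed positions and the lines between 143525 and 168199. Since the tables hold no expression, the labelled cell types could be set only beside promoter methylation. The promoter of Pou5f1, the transcription factor that marks pluripotent cells, had 17 hyper positions in GSC against 3 to 7 in the lines. That of Nanog had none listed in any library. Zfp42 had 3 hyper positions and Esrrb 1 in GSC, and neither had any listed in the lines. Among germ cell genes, Dazl had 6 hyper and 14 hypo positions in GSC, against 8 to 15 hyper and 0 to 3 hypo in the lines. Sycp3 had 1 hyper position in GSC and 4 to 15 in the lines. Mael had none listed in GSC, and 5 to 8 hyper and 0 to 5 hypo in the lines. Ddx4 had 2 hypo positions in GSC, none listed in iPSC 1, 1 hyper and 1 hypo in both iPSC 2 and gPSC 1, and 1 hyper and 6 hypo in gPSC 2.

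In mammalian cells methyl groups sit mostly on the cytosines of CpG dinucleotides, and CpG-dense gene starts are usually unmethylated whether or not the gene is active. Methylation spread over such a start is associated with stable silencing, whereas CpGs inside gene bodies are commonly methylated in expressed genes. Male germ cells and pluripotent cells differ in where this mark is laid down, and reprogramming to pluripotency is known for erasing much of the pattern of the cell of origin. The 8 genes share no pathway. Bcl3 is a nuclear IkappaB protein that works with NF-kappaB subunits, Vsx1 a homeobox factor of retinal bipolar cells, Speg a muscle kinase of the striated preferentially expressed family, Alpk3 an alpha kinase of heart muscle, Rock1 a kinase of the actin cytoskeleton, Chst5 a sulfotransferase acting on N-acetylglucosamine, Ltc4s the synthase that makes leukotriene C4, and Tmem259 (membralin) a membrane protein of the endoplasmic reticulum linked to degradation of misfolded proteins.

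In the windows used here the description as promoter methylation held for 6 of the 8 genes, and in Vsx1 and Alpk3 only with positions after the start. A promoter window here covered 2000 bp before and 500 bp after the outermost gene start, with the strand from RefSeq or, for Tmem259 and Rock1, from textbook knowledge. RefSeq places Ltc4s on the minus strand of chromosome 11, and its start window, chr11:50238032-50240532, held no listed position in any library. The 18 GSC hyper positions that had selected Ltc4s lay in chr11:50234461-50236961, all of them beyond its far end and inside the span of Mgat4b (chr11:50225335-50235103). Tmem259 lies on the minus strand of chromosome 10, its start window chr10:79983825-79986325 also held none, and its 27 selecting positions lay in chr10:79975120-79977620 at its far end beside the end of Grin3b. Both genes are described below as loci with GSC methylation at the far end, not as promoters.

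The sequence before the gene start shows what was methylated. RefSeq (GRCm38.p6) gave sequences for 6 of the 8 genes, and 4 are printed because they carry the GSC positions of 3 promoters and the empty start of Ltc4s. Only bases upstream of the outermost start are printed, 5′ to 3′ on the strand of the gene, and capitals mark each CpG with a base listed as hyper in GSC.
Bcl3, chr7:19822825-19823005, minus strand: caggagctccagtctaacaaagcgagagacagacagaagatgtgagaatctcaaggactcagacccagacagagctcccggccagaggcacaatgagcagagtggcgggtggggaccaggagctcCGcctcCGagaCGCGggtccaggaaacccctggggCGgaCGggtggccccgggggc
Speg, chr1:75375047-75375296, plus strand: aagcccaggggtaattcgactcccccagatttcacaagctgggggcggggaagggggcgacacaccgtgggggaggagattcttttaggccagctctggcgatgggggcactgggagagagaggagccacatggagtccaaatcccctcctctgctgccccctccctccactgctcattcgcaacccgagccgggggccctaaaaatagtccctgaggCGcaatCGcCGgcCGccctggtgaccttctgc
Chst5, chr8:111910200-111910449, minus strand: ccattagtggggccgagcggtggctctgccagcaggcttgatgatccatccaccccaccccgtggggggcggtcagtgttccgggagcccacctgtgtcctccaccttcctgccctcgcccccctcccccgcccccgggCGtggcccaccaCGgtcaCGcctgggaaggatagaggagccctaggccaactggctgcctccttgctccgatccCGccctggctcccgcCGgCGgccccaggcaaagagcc
Ltc4s, chr11:50238533-50238782, minus strand: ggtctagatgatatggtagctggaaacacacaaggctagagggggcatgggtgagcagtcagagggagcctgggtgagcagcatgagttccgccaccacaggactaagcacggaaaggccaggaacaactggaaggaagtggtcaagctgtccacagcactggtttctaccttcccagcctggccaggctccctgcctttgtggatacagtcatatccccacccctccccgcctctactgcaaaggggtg
In Bcl3, 6 of the 10 CpGs printed were hyper in GSC, and they fell in 1 block close to the start. Speg had 4 of 12 CpGs in capitals, all within the last stretch before its start, and Chst5 had 6 of 16 in 2 blocks. Ltc4s had 3 CpGs in 250 bases and none listed.

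Over the 300 bp that RefSeq gives around each start (250 before and 50 after), the CpG count was 26 for Bcl3, 21 for Chst5, 18 for Speg and 15 for Alpk3, against a median of 7 over 32851 promoter sequences. Vsx1 had 5 CpGs and Ltc4s 6, both below that median. The letters CCGG, which read the same on both strands, occurred 4 times each in Bcl3, Speg and Alpk3 and 3 times in Chst5, and were absent from Vsx1 and Ltc4s. At least 1 CCGG was present in 52.8% of all promoter sequences of this length. Of the listed positions in the 8 loci, 59 had a known base and all 59 lay on a CpG.

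Across the 8 loci GSC had 310 hyper and 30 hypo positions. The lines had fewer hyper positions, and iPSC 2 had more hypo positions: iPSC 1 had 47 hyper and 19 hypo, iPSC 2 had 69 and 47, gPSC 1 had 85 and 28, and gPSC 2 had 65 and 15. Within the promoter windows GSC had 127 hyper positions and 1 hypo position. There the lines had both directions, with 12 hyper and 8 hypo in iPSC 1, 18 and 16 in iPSC 2, 10 and 10 in gPSC 1, and 6 and 3 in gPSC 2. A further 123 positions were listed in a line and not in GSC.

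**Figure D1:**
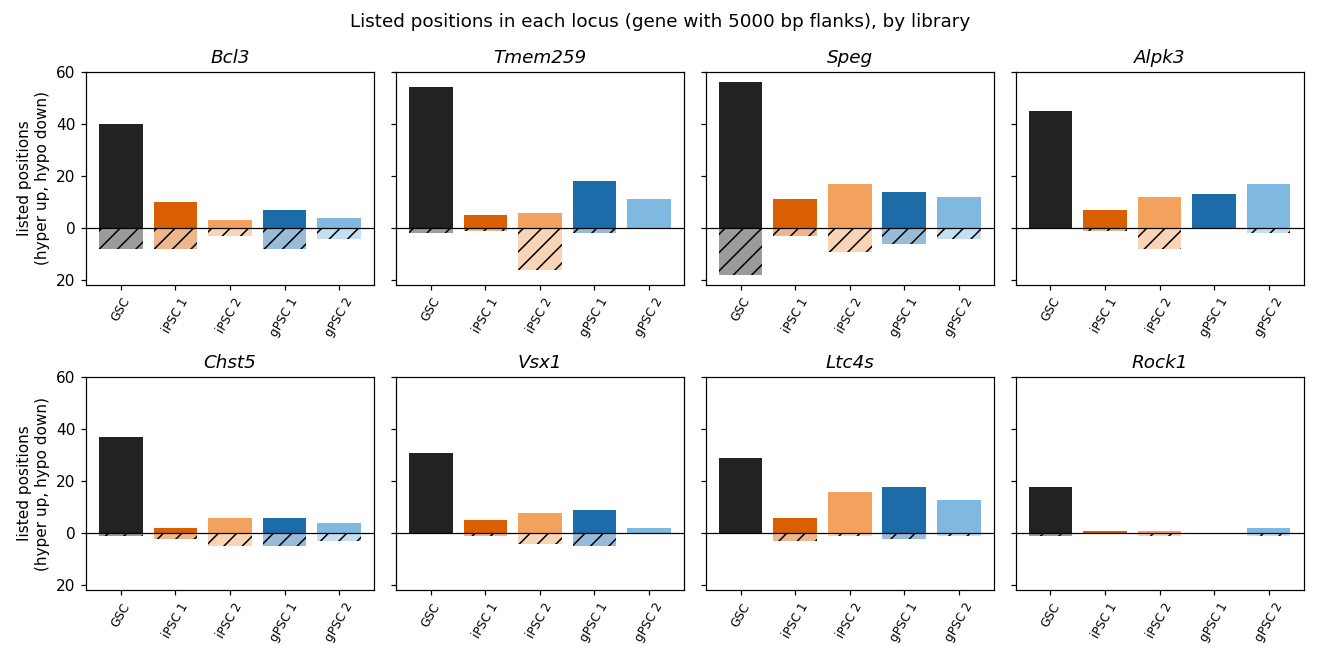
Listed positions in each of the 8 loci by library, hyper above 0 and hypo (hatched) below 0; bars are counts of single bases. GSC has the tallest hyper bar in every panel because the genes were chosen for it, and in Ltc4s the bars of iPSC 2, gPSC 1 and gPSC 2 come closest to it.

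Few of the GSC hyper positions of the promoters were hyper in a pluripotent line. Of the 127, 12 were also hyper in iPSC 1 (9.45%, 95% Wilson interval 5.49 to 15.8), 12 in iPSC 2 (9.45%), and 9 in gPSC 1 (7.09%, 3.77 to 12.9) and 6 in gPSC 2 (4.72%, 2.18 to 9.92). Over all 21386 GSC hyper positions in promoter windows the shares were 20.2% in iPSC 1, 30.4% in gPSC 1, 23.5% in iPSC 2 and 22.3% in gPSC 2. In each line the share of the chosen promoters was thus below the share of all promoters. How far this, and the like comparisons below, follow from choosing genes with many GSC positions was not tested. The intervals cover counting error only, and neighbouring bases that lie on the same fragments are not separate measurements. The mean over the 4 lines, 7.68% ± 2.26 (SD, n = 4 lines), was 3.57% when differences of at least 50 points were required and 3.21% without positions that had an opposite one within 50 bp, with the all-promoter mean at 24.1%, 18.4% and 25.9% respectively.

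Outside the promoter windows more of the GSC positions stayed listed, though in iPSC 1 the share was close to the 9.45% of the promoters. Of 183, 20 were also hyper in iPSC 1 (10.9%, 7.19 to 16.3) and 34 in iPSC 2 (18.6%). In gPSC 1 the number was 56 (30.6%, 24.4 to 37.6) and in gPSC 2 it was 40 (21.9%). The 183 include the 27 and 18 far-end positions that selected Tmem259 and Ltc4s. Over all 211853 GSC hyper positions of the series, promoter windows included, the shares were 32.7%, 35.5%, 42.1% and 37.7%. Counted over whole loci, 194 of the 310 GSC hyper positions (62.6%) were hyper in no line, against 39.8% over the series, and in the promoter windows 96 of 127 (75.6%), against 52.5% over all promoter windows. The locus share was 10.3% and 14.8% in the iPSC lines (12.6% ± 3.19, SD, n = 2) and 21.0% and 14.8% in the gPSC lines (17.9% ± 4.33, SD, n = 2), so the kinds met at 14.8%. Their means differed by -5.32 points (iPSC minus gPSC), and no test is given. Over all GSC hyper positions of the series the shares of both gPSC lines were also above those of both iPSC lines. In the promoter windows of the chosen genes the difference had the opposite sign, 3.54 points. Of the 12 promoter positions kept in iPSC 1, 10 were in Bcl3, so this sign rested largely on 1 gene in 1 line. By gene the difference was 17.2 points in Bcl3 and 6.52 in Speg. It was 0 in Rock1, -2.78 in Chst5 and in Vsx1, and -4.76 in Alpk3.

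**Figure D2:**
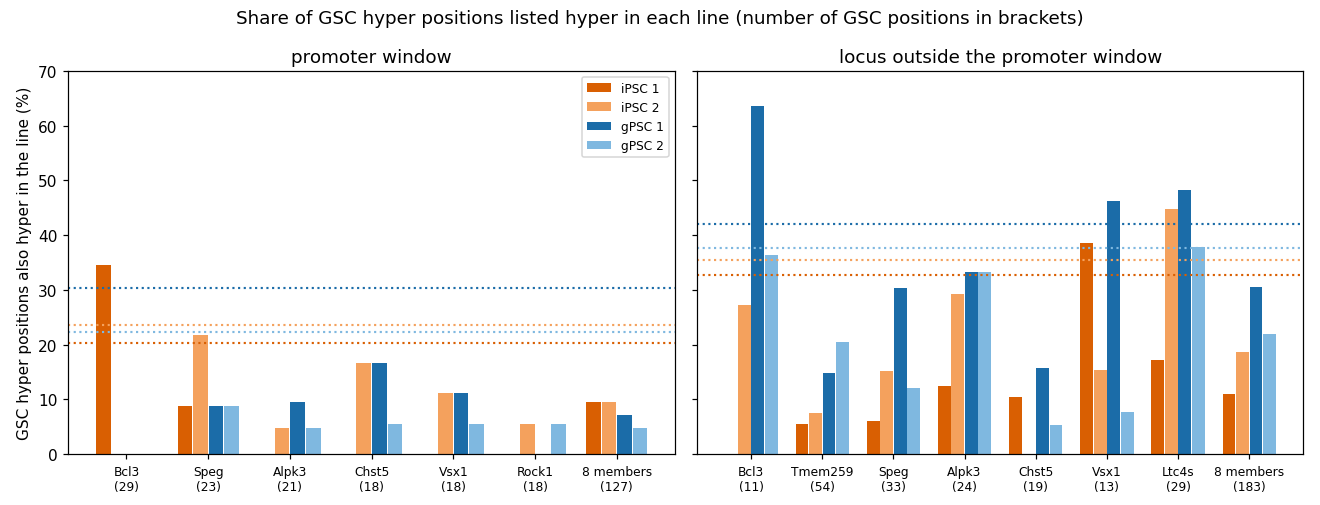
Share of GSC hyper positions also listed hyper in each line, for promoter windows on the left and the rest of each locus on the right, with the number of GSC positions in brackets. Dotted lines in the colour of each line give its share over all promoter windows of the series on the left and over all GSC hyper positions on the right; on the left the iPSC 1 bar of Bcl3 (34.5%) stands above its line and all other bars stay under theirs.

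Only 7 positions of the 310 were hyper in GSC and all 4 lines, and 1 of these was in a promoter window, at chr1:75375337 in Speg. It had 50 points in GSC, 42.6 in iPSC 1, 34.8 in gPSC 1, 34.3 in iPSC 2 and 40.9 in gPSC 2. The base before it, the C of the same CpG, was hypo by -41.4 points in iPSC 2, -38.4 in gPSC 1 and -55.6 in gPSC 2. That base was not listed in GSC or iPSC 1. A body position of Speg at chr1:75415148 had 100 points in GSC and in 3 of the lines and 71.4 in iPSC 1. A difference of 100 points means that all reads were methylated in the library and none in the reference. The 5 others were 2 in Alpk3, 2 in the Ltc4s locus and 1 at the far end of Tmem259. No position of the 8 loci was hyper in both iPSC lines and hypo in both gPSC lines, or the reverse.

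Bcl3 had 29 hyper positions and no hypo position in its promoter window (chr7:19822324-19824824, minus strand) in GSC, 10 hyper and 6 hypo in iPSC 1, and none in iPSC 2, gPSC 1 or gPSC 2. They formed 2 blocks. The 6 positions from 56 to 17 bp before the start, those in capitals above, had a mean of 78.3 points in GSC, and the same 6 were hyper in iPSC 1 with a mean of 49.3. At a difference of 78.9 points, the value at most of them in GSC, methylation in the reference can have been at most 21.1%. The block was listed in neither gPSC line and not in iPSC 2, so iPSC 1 differed here from its sister line.

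The second Bcl3 block, from 221 to 327 bp after the start, had 23 GSC hyper positions with a mean of 32.7 points. In iPSC 1 it had 4 hyper positions near 25.4 points and 6 hypo positions near -26.1 points, and all 4 hyper ones had a hypo neighbour 1 base away. The remaining listed Bcl3 positions lay in its body. Around chr7:19816378-19816566, just before the start of the long non-coding RNA gene Gm16174, GSC had 7 hyper and 8 hypo positions, gPSC 1 the same 7 and 8, gPSC 2 had 3 and 4, iPSC 2 had 1 and 2 and iPSC 1 none. The gPSC 1 share outside the promoter (7 of 11 GSC positions) came from this block alone.

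Vsx1 had 18 hyper positions in its promoter window (chr2:150688637-150691137, minus strand) in GSC, with a mean of 48.1 points and a range from 28.3 to 73.2. All lay 149 to 425 bp after the start. The block continued past the window to 552 bp after the start and held 21 positions in all. In the lines the window was mixed: iPSC 1 had 1 hypo position, iPSC 2 had 4 hyper and 4 hypo, gPSC 1 had 3 and 5, and gPSC 2 had 1 hyper. At chr2:150688758 iPSC 1, iPSC 2 and gPSC 1 were hypo by -60.2, -43.5 and -50.4 points and GSC was not listed. The adjacent base, chr2:150688757, was hyper by 46.2 points in iPSC 2 and 61.9 in gPSC 1, and was not listed in iPSC 1. A second block in the gene, 4564 to 4668 bp after the start, had 7 hyper positions in GSC (mean 72.0), 5 in iPSC 1 (68.6), 6 in gPSC 1 (52.3) and none in iPSC 2 or gPSC 2. There 1 line of each kind kept the GSC positions and the other line of each kind did not.

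Speg had 23 hyper positions in its promoter window (chr1:75373297-75375797, plus strand) in GSC, 2 in iPSC 1, 5 in iPSC 2 with 3 hypo, and 2 with 1 hypo in each gPSC line. The window is shared with the divergent long non-coding RNA gene Gm15179, so these counts belong to either start. From 31 bp before to 134 bp after the start, 13 GSC positions had a mean of 61.9 points. From 256 to 381 bp after the start 10 had a mean of 46.7, and iPSC 2 alone among the lines had listed positions there, 4 hyper (mean 34.7) and 2 hypo (mean -45.9). The deposited annotation places most of the window's positions in exon and promoter.

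In the body of Speg the GSC direction changed along the gene. Between 29604 and 29699 bp after the start GSC had 5 hyper positions (mean 66.2) and iPSC 2 had 6 (55.1), with none in the other lines. Between 46692 and 46812 bp GSC had 7 hyper positions (50.8) and gPSC 1 had 3 (68.3). Next to these, from 47762 to 47885 bp, GSC had 16 hypo positions with a mean of -52.7 points and no line had any. This is the largest hypo block of GSC in the 8 loci, and it makes up 16 of the 18 GSC hypo positions of Speg. Within it 6 positions had the same difference of -53.8 points and 7 the same of -48.2, with the same p-value in each set. Bases this close can lie on the same reads, so they are not counted here as 16 separate measurements. Towards the end of the gene, between 54122 and 54342 bp, iPSC 1 had 6 hyper positions (39.9) and gPSC 2 had 4 (57.1), against 1 each in GSC, iPSC 2 and gPSC 1.

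Alpk3 had 21 hyper positions in its promoter window (chr7:81055469-81057969, plus strand) in GSC, with a mean of 64.2 points and a range from 27.3 to 89.2, all between 59 and 291 bp after the outermost start. The window had no listed position in iPSC 1, 2 hyper in gPSC 1, and 1 hyper and 1 hypo in gPSC 2. In iPSC 2 the window had 8 hypo positions (mean -56.5) and 2 hyper, so it met the call for a hypo promoter, at least 3 positions of a direction and at least 80% of those listed. It was the only hypo call among the 8 genes in any library. Of the 7377 promoters, 11.1% were called hypo in GSC, 4.11% in iPSC 1, 4.24% in gPSC 1, 6.51% in iPSC 2 and 3.67% in gPSC 2. None of these 8 positions was itself listed in GSC. The lowest 4, from -78.6 to -81.9 points, lay 110 to 123 bp after the start, and 4 more lay 1 base from a GSC hyper position. A base that dropped by 81.9 points needs at least that level of methylation in the reference. Outside the promoter Alpk3 kept 3 of 24 GSC positions in iPSC 1, 7 in iPSC 2 and 8 in each gPSC line.

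Rock1 had 18 hyper positions and 1 hypo position in its promoter window (chr18:10181751-10184251, minus strand) in GSC, all from 42 bp before to 43 bp after the start. Of these, 15 had the same difference of 74.1 points and the same p-value of 0.00155 over 75 bp. Bases this close can lie on the same reads, so they are not counted here as 15 separate measurements. The lines had almost nothing listed here: iPSC 2 had 1 hyper position with 81.8 points, gPSC 2 had 1 with 58.2 points and 1 hypo with -32.6, and iPSC 1 and gPSC 1 had none. Although the gene spans 117851 bp, its whole locus had 23 distinct listed positions, 3 of them away from the promoter.

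Chst5 had 18 hyper positions in its promoter window (chr8:111909699-111912199, minus strand) in GSC, with a mean of 50 points and a range from 32.3 to 74.6, at distances of -111 to 271 bp from the start. iPSC 2 had 6 hyper positions (mean 46.1) and 1 hypo, which met the call for a hyper promoter. It was the only call of a hyper promoter among the 8 genes in any line, where 8.31% and 7.9% of the 7377 promoters were called hyper in iPSC 1 and 2, and 9.54% and 10.5% in gPSC 1 and 2. No member was called hyper in all 4 lines, as 1.86% of promoters were. Of the 6, 3 were also hyper in GSC. iPSC 1 had 1 hypo position, gPSC 1 had 3 hyper and 4 hypo, and gPSC 2 had 1 hyper. Upstream of the gene, at chr8:111913689-111913752, GSC had 5 hyper positions with a mean of 41.4 and iPSC 1 had 1 with 34.3. This block lies inside the span of the protein-coding gene Tmem231 (chr8:111912007-111933813) and before the start of the non-coding gene Gm36531.

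**Figure D3:**
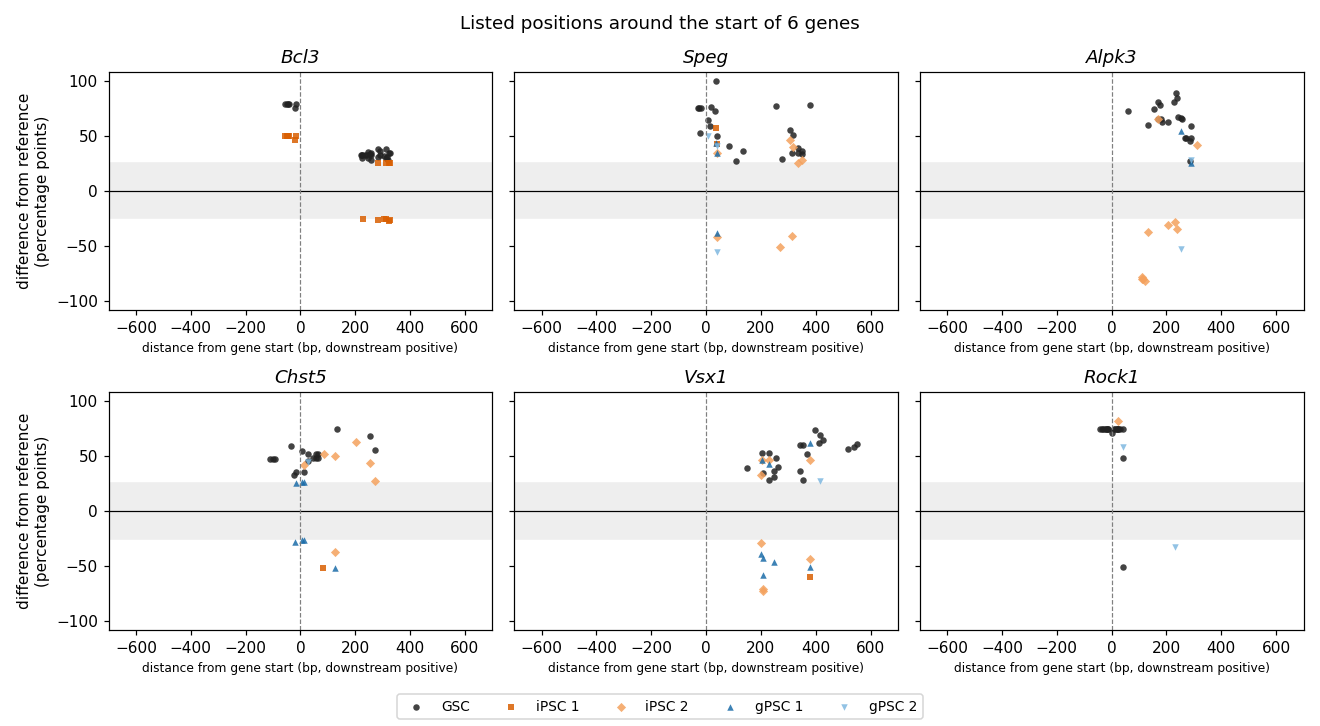
Difference from the reference against distance from the gene start for every listed position near the starts of 6 genes, coloured and shaped by library; the grey band is the range below 25 points in which nothing is listed. GSC points (black) lie above 0 except for 1 in Rock1, and points of the lines fall on both sides of 0 in every panel.

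On the mean over the 4 lines the Ltc4s locus kept 37.1% of its GSC positions, against 2.78% to 16.7% in the other loci. Its 29 GSC hyper positions (mean 49.4 points) all lay outside the start window, 26 of them in 3 stretches on the far side. Of these, 5 were hyper in iPSC 1 (17.2%), 13 in iPSC 2 (44.8%, 28.4 to 62.5), 14 in gPSC 1 (48.3%, 31.4 to 65.6) and 11 in gPSC 2 (37.9%, 22.7 to 56.0). In iPSC 2, gPSC 1 and gPSC 2 these shares were close to those of all GSC hyper positions, 35.5%, 42.1% and 37.7%, and in iPSC 1 the share was lower than its 32.7%. The deposited annotation of the stretches names exon, promoter or, for some positions, intron, and they lie inside the span of Mgat4b, a glycosyltransferase gene that also holds the microRNA gene Mir6919. At chr11:50234844 the differences were 55.3 points in GSC, iPSC 2 and gPSC 2 and 43.5 in gPSC 1. At chr11:50233491 the 4 lines were hyper with 83.3, 93.2, 55.6 and 82.8 points (iPSC 1, iPSC 2, gPSC 1, gPSC 2) and GSC was not listed.

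Tmem259 had 54 hyper positions (mean 63.9 points) and 2 hypo positions in GSC. The stretch with the most, chr10:79977380-79977740, held 20 of the hyper positions with a mean of 72.1 points. There iPSC 1 had 2 hyper positions (mean 32.6), iPSC 2 had 6 (41.0), gPSC 1 had 5 (63.9) and gPSC 2 had 4 (30.4), all below the GSC mean. Over the locus the iPSC lines kept 3 (5.56%) and 4 (7.41%) of the 54, and the gPSC lines 8 (14.8%) and 11 (20.4%). At the other edge of the locus, beside the start of the calponin gene Cnn2 at chr10:79988738-79988831, iPSC 2 had 12 hypo positions with a mean of -56.8 points, gPSC 1 had 2, GSC had 2, iPSC 1 had 1 and gPSC 2 none.

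**Figure D4:**
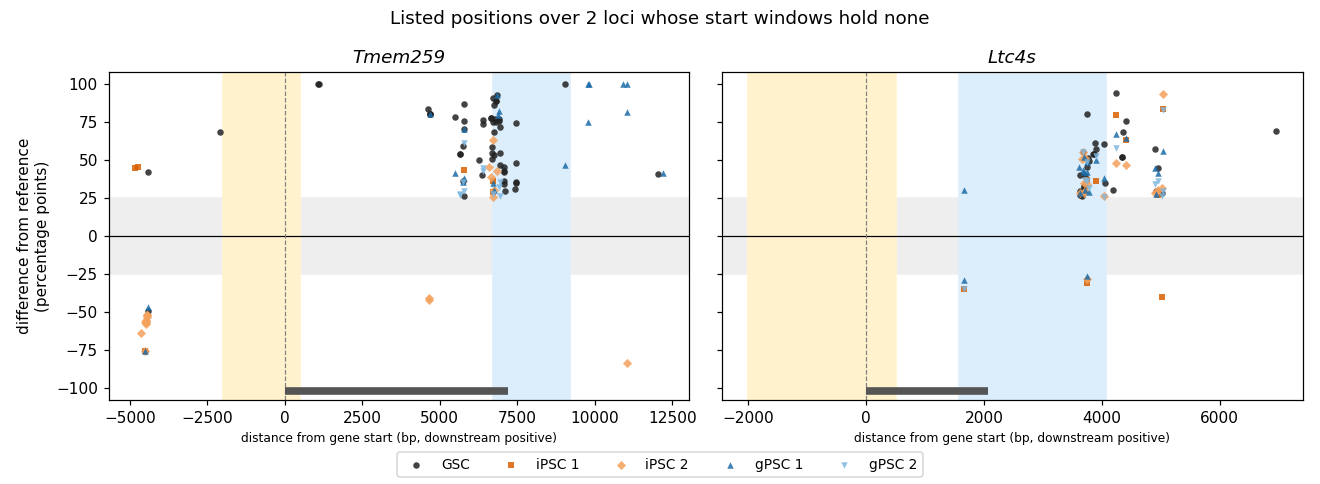
Difference from the reference against distance from the gene start across the Tmem259 and Ltc4s loci, by library; the dark bar is the gene, the yellow band the window at its start and the blue band the far-end window that led to its choice. The yellow bands hold no points, and the hyper points gather in and beside the blue bands.

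Positions that stayed hyper in a line mostly did so at a smaller difference. At the 32 positions hyper in both GSC and iPSC 1 the median of GSC minus line was 20.6 points, and GSC was higher at 30. The median was 9.8 points over 46 positions in iPSC 2 (33 higher in GSC), 10.7 over 65 in gPSC 1 (48 higher) and 18.4 over 46 in gPSC 2 (39 higher). Bcl3 was the exception in gPSC 1, where all 7 shared positions, those beside Gm16174, were higher in the line, with a median of -11.5 points for GSC minus line. Because the genes were chosen for high GSC values, a smaller value in a line is partly fixed by the choice, and no test is given.

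**Figure D5:**
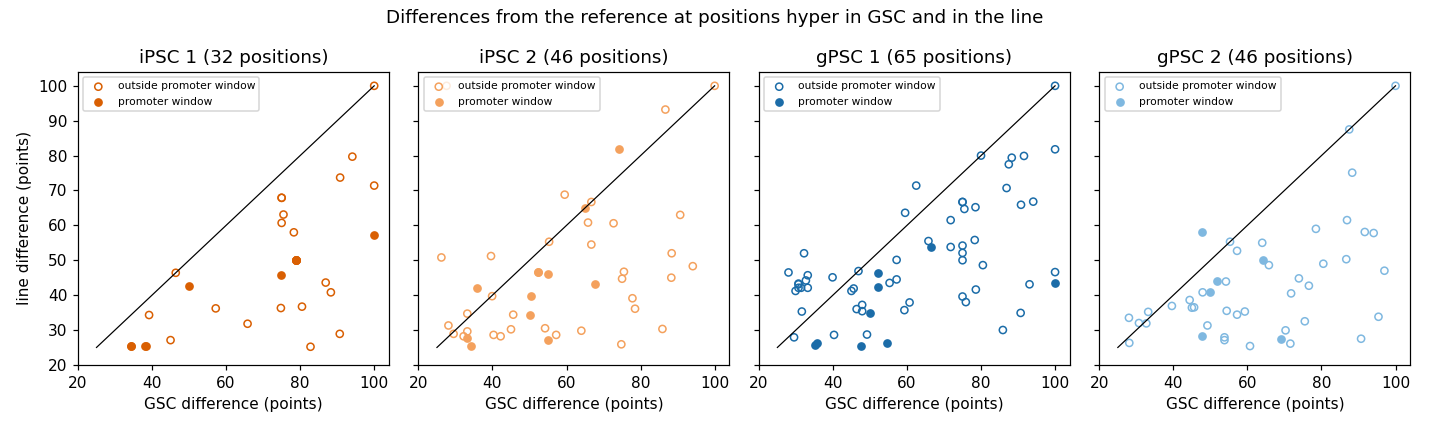
Difference in each line against the difference in GSC, in percentage points, for positions hyper in both; filled points lie in promoter windows and the diagonal marks equal values. Most points lie under the diagonal, by a median of 20.6 points in iPSC 1 and 9.8 in iPSC 2.

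Neighbouring bases often had opposite signs, which bears on how the hypo counts of the lines can be read. Among 79 pairs of listed positions 1 bp apart in the same library, 45 (57.0%) had opposite directions and 36 of these had differences that cancelled to within 5 points. Of 26 opposite pairs with known bases, 24 were the C and the G of the same CpG. Bcl3 had 25 of the 45, among them the pair at chr7:19816409 and the next base with 44.2 and -44.2 points in gPSC 1, 32.7 and -32.7 in GSC and 31.9 and -31.9 in gPSC 2. All 17 adjacent pairs of gPSC 1 were opposite, against 10 of 40 in GSC. Over the whole series 63.3% of adjacent pairs in GSC and 79.3 to 87.0% in the lines were opposite. A CpG is methylated on both strands in most cells, and what made these pairs opposite was not tested. Without positions that had an opposite one 1 bp away, the mean share of promoter positions kept was 4.96%, and that of the Bcl3 locus was 6.06% in place of 15%.

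A two-sided exact permutation test set the hyper counts of each promoter in the iPSC lines against those in the gPSC lines; with 2 lines against 2 its smallest p is about 1 in 3, so it cannot reach 0.05. All 6 genes with listed promoter positions had an exact permutation p = 1 and an adjusted p = 1 (Benjamini-Hochberg over 7377 promoters), and the counts of the 2 groups overlapped in each. The difference in mean count, iPSC minus gPSC, was 5 positions for Bcl3, 1.5 for Speg, 1 for Chst5, -0.5 for Alpk3 and 0 for Vsx1 and Rock1. The value for Bcl3 came from iPSC 1 alone, since iPSC 2 had none. No promoter of the series reached an adjusted p of 0.05, and none an unadjusted one. Counts did not overlap with more in both gPSC lines at 7.58% of promoters and with more in both iPSC lines at 3.82%.

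In GSC 6 of the 8 genes were called hyper promoters, by choice, where 16% of the 7377 promoters were. The genes with the fewest positions just inside the choice, Chst5, Vsx1, Rock1 and, in its far-end window, Ltc4s, had 18. Just outside were Pou5f1 with 17 (mean of all its listed GSC positions 66.9 points), the predicted gene Gm46775 with 17 (48.7) and the palmitoyltransferase gene Zdhhc25 with 17 (33.4). With the strands of RefSeq, 91 further promoters had 18 or more GSC hyper positions, of which 78 had too many hypo positions to be called and 13 were called hyper. Those of the 13 that are not predicted genes were Papolb (36 positions), Pik3cb (22), Ccdc194 (20), Chad (19) and Slc15a1 (18). By the distance between hyper counts over the 5 libraries, the nearest promoter was that of Aqp5 for Bcl3 (27 positions in GSC, 9 in iPSC 1 and 1 or 2 in each other line), Rab35 for both Speg and Alpk3, Elavl4 for Chst5, Serf1 for Vsx1 and Hspd1 for Rock1. The nearest promoters differed from the chosen ones in their hypo positions: the mean of all listed GSC positions was between -1.32 and 4.21 points in each of them, against 42.1 to 65.9 in the 6 genes.

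Few other genes of the same pathways were called hyper in GSC. Lists of NF-kappaB and IkappaB proteins, degradation factors of the endoplasmic reticulum, muscle kinases and sarcomere scaffolds, carbohydrate sulfotransferases, retinal homeobox genes, leukotriene enzymes and receptors, and the cytoskeletal pathway of Rock1 held 93 other genes, of which 28 had 3 or more listed promoter positions. In GSC 2 of the 28 were called hyper (7.14%, against 16% of all promoters) and 5 hypo, where 11.1% of all promoters were called hypo. The hyper ones were Rnf185, a ubiquitin ligase, with 5 positions and Dpep1, a dipeptidase that converts leukotriene D4, with 3. The hypo ones were Rel, an NF-kappaB subunit, with 15 hypo positions (mean -89.9 points), Alox5, the enzyme that starts leukotriene synthesis, with 6 (-60.1), the myosin kinase Mylk with 5, the sarcomere protein Myom1 with 5 and the small GTPase Rhob with 3.

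Of the 28 pathway genes, the number called hyper was 0 in iPSC 1 (8.31% of all promoters), 1 in iPSC 2 (3.57% of the genes, against 7.9%), 1 in gPSC 1 (3.57%, against 9.54%) and 2 in gPSC 2 (7.14%, against 10.5%). The number called hypo was 3 in iPSC 1, 0 in iPSC 2, and 1 in each gPSC line, where 4.11%, 6.51%, 4.24% and 3.67% of all promoters were. Alox5 was called hypo in GSC, iPSC 1, gPSC 1 and gPSC 2, with 6, 6, 4 and 6 hypo positions and no hyper one, and iPSC 2 had 7 hypo and 2 hyper. Rela, the NF-kappaB subunit p65, was hypo in iPSC 1 with 17 positions (mean -48.5) and mixed in GSC with 13 hyper and 15 hypo. The sulfotransferase gene Chst14 was hypo in iPSC 1 with 3 positions. Isl1 was hyper in gPSC 1, Dpep1 in iPSC 2 and gPSC 2, and Mgst2, a glutathione transferase that can also make leukotriene C4, in gPSC 2 with 4 positions. Of the genes called in GSC within each pathway, the member itself was the only hyper one for Bcl3, Chst5, Vsx1 and Rock1, and Speg and Alpk3 were the only ones for the muscle list.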

How the data were processed

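Bisulfite sequencing of a reduced part of the genome was done in 6 mouse lines, of which 5 have 10 tables. The tools were methylKit, Bismark, GATK and Bowtie2 with the genome build GRCm38 (mm10), per the submitters' processing notes. Their versions, roles and settings were not given in the sources used here. For each position the authors deposited a p-value, a q-value and a difference from a reference in percentage points, and listed called positions only, so the depth per sample and the precision of a single value are unknown.

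Coordinates are those of the tables. Gene spans came from the GRCm38.p6 gene table and strands from the RefSeq promoter table, which has 6 of the 8 genes. For Tmem259 and Rock1 the textbook strand, minus, was used. Earlier work had inferred strands from the feature column, which put 2 windows at the far end. Loci had 5000 bp on each side, promoters 2000 bp upstream and 500 bp downstream of the outermost start, and positions were matched at the same base. A call needed 3 positions of a direction and 80% of those listed. Runs of positions were joined over gaps of up to 100 bp and described from 5 positions. The members, lists and rules were chosen with earlier results of these data known.

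The named genes are the 8 members, some of the genes overlapping their loci, called promoters above the lowest member and 3 just below it. Those 3 had the highest mean difference among promoters tied at that count. Also named are the nearest promoter by Euclidean distance of hyper counts (predicted genes left out), and up to 4 called genes per pathway list. iPSC and gPSC lines were compared by an exact permutation test with Benjamini-Hochberg adjustment, unpaired. The comparison was tested on simulated data. Each line is a separate cell line, so p-values measure the spread between lines. The alternatives were stricter differences and q-values, removal of opposite neighbours, merged neighbours, other windows and tolerances, lines left out and paired lines. Python 3.11.15, pandas 2.3.3, numpy 2.4.6 and scipy 1.17.1 were used.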

Additional observations from a re-analysis of the deposited data

How the results depend on the processing

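The mean share of GSC hyper positions that stayed hyper in the 4 lines was 15.2% over the 8 loci and 7.68% in their promoters. It was 8.7% and 3.57% with differences of at least 50 points, and 10.1% and 4.34% with q-values of at most 0.001. The promoter share was 4.96% without positions that had an opposite one within 1 bp, 3.21% within 50 bp, and 11.0% with the windows used to choose the genes, an alternative added after seeing the data. In each of the first 4 settings it stayed under the share of all promoters, 18.4% to 25.9%. Leaving out 1 line at a time gave 13.3% to 16.9% for the loci and 7.09% to 8.66% for the promoters.

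Promoters with no overlap numbered 559 (more in gPSC) and 282 (more in iPSC). They numbered 218 and 103 at 50 points, 366 and 120 without opposite positions within 50 bp, and for iPSC 165 at the stricter q-value and 173 without opposite positions within 1 bp. Leaving out 1 line gave 981 to 2008 and 650 to 1397, with fewer lines to separate. The iPSC minus gPSC difference of Alpk3 ranged from -1.5 to 0.5 positions (reversed without iPSC replicate 1) and that of Chst5 from -2 to 4 (reversed without iPSC replicate 2). Promoters called hyper in GSC fell from 1179 to 546 with at least 5 positions for a call, and those called in all 4 lines from 137 to 43. The latter were 27 at 50 points and 90 at the stricter q-value, and 172 to 200 with 1 line left out. The cause of these shifts was not tested.

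Line numbers do not pair the lines: deviations of equal numbers had a correlation of -0.112 over 7377 promoters. With a replicate block the promoters with no overlap were 754 and 405, with the crossed pairing 804 and 433, and the smallest p a block can give is 0.5. The block could not change the locus share difference, iPSC minus gPSC, of -5.32 points, because a mean of paired differences equals the difference of means. Within equal numbers the difference was -10.6 points for the lines numbered 1 and 0.0 for those numbered 2. Of the remaining values for single genes, 140 were not reversed, or moved by less than the spread between lines, and 9 moved by more. A count difference that was or became 0 could not count as reversed. That of Vsx1, 0 with all lines, ranged from -2 to 2 with 1 line left out, and that of Bcl3 fell from 5 to 0 without iPSC replicate 1. With no coverage given, neither missing positions nor small differences can be judged.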
